A study of Homo sapiens with 6 samples.

Results

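The genes described here are 51 members of the type I interferon pathway: the receptor chains, the receptor kinases, STAT2, 5 interferon regulatory factors and 41 interferon-stimulated genes and sensors, chosen by symbol from the table of estimated counts. Of these, 50 were found among the 35430 genes listed, and all 50 passed the filter on low counts. XAF1 was not analysed here. LNCaP is a cell line from a human prostate cancer that responds to androgen. RNA taken with oligo-dT beads was sequenced in 3 libraries from LNCaP cells after 1 week in 0.5 µM palbociclib, a drug that blocks the cell cycle kinases CDK4 and CDK6, and in 3 libraries from LNCaP control cells. The labels give neither a vehicle nor a duration for the controls, so effects of duration and of palbociclib cannot be told apart. The labels name a single cell line and do not say whether replicates were separate cultures, so that p-values may measure technical spread only.

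Type I interferons are secreted by cells that sense foreign or misplaced nucleic acid. They bind a receptor made of IFNAR1 and IFNAR2, whose bound kinases TYK2 and JAK1 phosphorylate STAT proteins. STAT2, a partner STAT and IRF9 form a complex that binds a promoter element, the interferon-stimulated response element (ISRE), and turns on stimulated genes that block viral entry, translation and replication. LNCaP is known as a line with little JAK1 and a weak response to interferon. CDK4 and CDK6 inhibitors have been reported to raise interferon-stimulated genes in other tumour cells, which is background and not a result of these data.

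The ISRE is shown first, since it is the element through which the pathway acts on stimulated genes, and members that changed in opposite directions carry it. The motif searched was GAAA, then 2 bases of any kind, then GAAA again, on either strand. A match on the other strand reads TTTC, 2 bases of any kind and TTTC, and overlapping matches were kept. Windows were RefSeq promoters on GRCh38.p14, 250 bases before to 50 bases after each annotated start, and 38 of the 51 members had at least 1 window. Below are the windows of ISG15, of IFIT1 and of IFIT5, 5′ to 3′ along the gene's strand, with ISRE matches in capitals.
ISG15 (chr1:1013247-1013546, plus strand): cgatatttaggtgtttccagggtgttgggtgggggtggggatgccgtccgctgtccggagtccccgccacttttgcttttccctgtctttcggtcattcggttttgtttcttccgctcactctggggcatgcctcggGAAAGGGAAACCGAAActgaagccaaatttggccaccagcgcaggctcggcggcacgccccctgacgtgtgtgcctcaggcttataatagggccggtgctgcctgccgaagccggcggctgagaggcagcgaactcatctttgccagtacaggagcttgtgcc
IFIT1 (chr10:89392373-89392672, plus strand): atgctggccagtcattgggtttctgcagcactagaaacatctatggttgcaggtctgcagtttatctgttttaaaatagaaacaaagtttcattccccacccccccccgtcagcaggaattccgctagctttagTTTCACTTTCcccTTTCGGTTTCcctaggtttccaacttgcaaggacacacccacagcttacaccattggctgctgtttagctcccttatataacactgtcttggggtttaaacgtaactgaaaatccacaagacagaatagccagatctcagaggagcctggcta
IFIT5 (chr10:89414318-89414617, plus strand): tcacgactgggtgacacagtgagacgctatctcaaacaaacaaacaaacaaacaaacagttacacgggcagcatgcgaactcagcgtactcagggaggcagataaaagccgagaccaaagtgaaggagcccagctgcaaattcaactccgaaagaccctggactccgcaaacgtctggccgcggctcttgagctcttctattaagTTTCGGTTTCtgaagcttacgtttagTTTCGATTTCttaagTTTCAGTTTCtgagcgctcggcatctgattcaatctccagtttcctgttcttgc
Further matches of members described below follow, with 10 bases on each side in lower case.
IFIT3 (chr10:89327865-89327894, plus strand): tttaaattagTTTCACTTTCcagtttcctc
IFITM3 (chr11:320876-320905, minus strand): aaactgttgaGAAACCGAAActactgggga
LGALS3BP (chr17:78979962-78979991, minus strand): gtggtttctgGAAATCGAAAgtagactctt
MX1 (chr21:41420559-41420588, plus strand): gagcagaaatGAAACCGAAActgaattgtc
OAS3 (chr12:112938452-112938481, plus strand): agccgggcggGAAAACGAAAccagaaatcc
PARP14 (chr3:122680800-122680829, plus strand): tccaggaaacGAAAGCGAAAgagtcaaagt
DTX3L (chr3:122564322-122564351, plus strand): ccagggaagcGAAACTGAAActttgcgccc
Of 37 tested members with a window, 24 held the motif (64.9%), against 507 of 12898 tested genes with a window (3.93%). The motif was present for 9 of 14 members that were higher after palbociclib, for 4 of 8 that were lower and for 11 of 15 that did not pass. As shares these are 64.3%, 50% and 73.3%. A second motif, TTCNNNGAA, the core of the gamma-activated site, was in the windows of 2 of 14 higher members, 2 of 8 lower members and 7 of 15 members that did not pass, against 8.6% of tested genes with a window. These are matches of letters in annotated windows, and the starts in use in LNCaP were not measured.

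After palbociclib more of the pathway's genes were higher than lower, and the changes were uneven. Of the 50 members, 23 were higher, against 20.1% of all 21218 genes tested, and 10 were lower, against 18.5% of all genes (edgeR's quasi-likelihood test, Benjamini-Hochberg adjustment over all genes, threshold 0.05; this test gives every adjusted p below, and ± after a log2 fold change is its SE). The share lower is close to the background and is no result about these genes. The other 17 did not pass, so that 33 were called in either direction (38.6% of all genes). The members' median log2 fold change, palbociclib over control, was 0.35, beside -0.03 for all genes tested. The libraries of the groups did not overlap for 28 members with palbociclib above (25.7% of all genes) and for 10 with palbociclib below (25.3%), or 38 in all (51.1%). Changes past 2-fold were higher for 7 members (3.00% of all genes) and lower for 3 (5.27%). In these bulk RNA samples, a change in the share of cells that express a gene and a change in RNA per cell cannot be told apart.

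**Figure D1:**
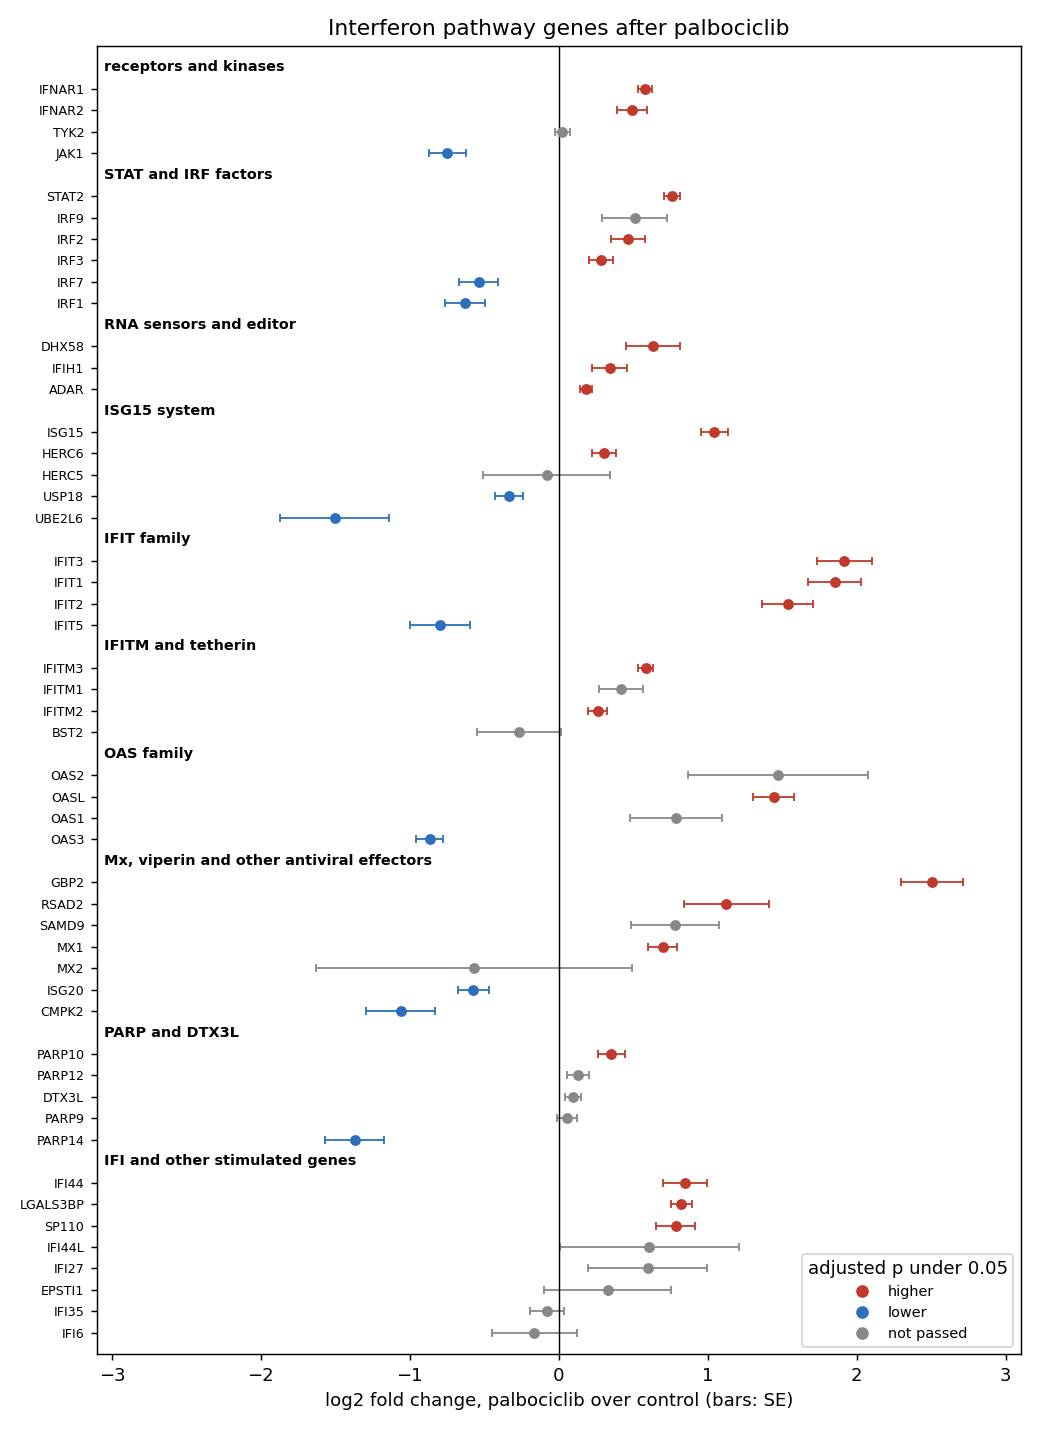
Log2 fold change (x axis, palbociclib over control, bars are SE) of the 50 members tested, grouped by role. Red marks 23 genes that were higher and blue 10 that were lower at an adjusted p under 0.05, grey the 17 that did not pass; GBP2 lies farthest to the right at 2.51 and UBE2L6 farthest to the left at -1.50.

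The test was refitted under 14 alternatives: other scalings, filters and units, each library left out in turn, and a replicate block. With library size alone in place of trimmed mean of M-values (TMM) scaling, 17 members were higher, against 14.6% of all genes, and 10 were lower, against 25.8% of all genes. With limma on log2(FPKM + 1), which changes the unit, the test and the filter together, 14 of 47 members were higher, against 14% of all genes, and 10 were lower, against 23%. With limma on log2(FPKM + 0.1), 13 of 47 were higher, against 14%, and 10 were lower, against 23.1%. The members' share lower was 20% with library size alone, below the share over all genes. With limma it was 21.3% on either FPKM scale, close to the share over all genes. The fit with TMM also gave a share close to the background. Among all called genes the higher share was 52.1% with TMM, 37.7% on either FPKM scale and 36.1% with library size alone.

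Library totals ran from 59183323 to 76211410 estimated counts with palbociclib and from 57082715 to 78117945 in controls, and about 4 counts stand for a fragment. The floor for a gene at 0 was set at 3 fragments, or 12 counts, which is 0.148 to 0.211 on the CPM scale used for levels (counts after TMM scaling to one library size). The 8 luminal prostate and LNCaP markers summed to 7106 to 7417 CPM with palbociclib and 4451 to 4481 CPM in controls, and none was at 0. Of 8 leukocyte markers listed, the sum was 6.49 to 8.74 CPM with palbociclib and 4.50 to 7.67 CPM in controls. Most of the palbociclib sum was CD68, a lysosomal protein, at 4.38 to 7.40 CPM against 2.00 to 2.85 CPM in controls (higher, adjusted p = 0.00162). PTPRC, the pan-leukocyte marker, was lower, at 0.396 to 0.598 CPM with palbociclib and 0.851 to 1.81 CPM in controls (adjusted p = 0.0267). CD3E had 0, 0.262 and 0.475 CPM with palbociclib, against 0.814, 1.61 and 0.702 CPM in controls, and did not pass (adjusted p = 0.105). Of 7 leukocyte markers tested, 3 had a log2 fold change above 0, and 5 did not pass. The sum therefore does not give the direction of the single markers. The 6 fibroblast and endothelial markers listed summed to 34.0 to 37.6 CPM with palbociclib and 36.0 to 40.8 CPM in controls, with DCN under the floor in every library. Most of that sum was COL1A1, a fibroblast collagen, at 27.2 to 30.4 CPM with palbociclib and 25.5 to 26.4 CPM in controls, which did not pass (adjusted p = 0.0833). VWF, an endothelial clotting factor, was the 1 marker of that list called, lower at 5.44 to 6.16 CPM with palbociclib against 9.71 to 12.8 CPM in controls (adjusted p = 0.000463). The part of these marker differences in the results below was not tested.

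The receptor chains were both higher and JAK1 was lower. IFNAR1 (ENSG00000142166, chromosome 21, 33324387 to 33359730 in hg38 coordinates), the chain that binds TYK2, had 89.9, 89.0 and 88.5 CPM with palbociclib, against 56.3, 59.8 and 62.9 CPM in controls. Every palbociclib library lay above every control library (log2 fold change 0.58 ± 0.0491, adjusted p = 3.13e-05). IFNAR2 (ENSG00000159110, chromosome 21, 33205282 to 33265675), the chain that binds JAK1, had 24.2, 21.7 and 25.7 CPM with palbociclib, against 17.0, 15.2 and 18.6 CPM in controls. Its groups did not overlap either (log2 fold change 0.49 ± 0.101, adjusted p = 0.00439), and its call was lost with limma on both FPKM scales (adjusted p up to 0.0512, from 2.17e-05). IFNAR2 shares 2038 of 13865 exon bases with a read-through gene of the same strand, whose reads cannot be told apart there.

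JAK1 (ENSG00000162434, chromosome 1, 64833223 to 65067746) went the other way from the receptor. It had 11.6, 11.0 and 12.6 CPM with palbociclib, against 18.1, 23.2 and 17.9 CPM in controls, and the highest palbociclib library lay below the lowest control (log2 fold change -0.75 ± 0.122, adjusted p = 0.00135; lower under all 14 alternatives, adjusted p at most 0.00869). TYK2 (ENSG00000105397, chromosome 19, 10350533 to 10380608), the other receptor kinase, had 77.6, 73.2 and 79.0 CPM with palbociclib, against 77.8, 76.9 and 71.3 CPM in controls. The TYK2 groups overlapped, and the difference did not pass (log2 fold change 0.02 ± 0.0509, adjusted p = 0.756). Per length, JAK1 was at 0.823 ± 0.0575 FPKM with palbociclib and 1.49 ± 0.238 FPKM in controls (FPKM, fragments scaled to exon length and library size; SD, n = 3 each). TYK2 was higher per length, at 8.32 ± 0.335 FPKM with palbociclib and 8.83 ± 0.443 FPKM in controls. Within each library the ratio of TYK2 to JAK1 on the FPKM scale was 9.72 to 10.4 with palbociclib and 5.13 to 6.63 in controls.

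**Figure D2:**
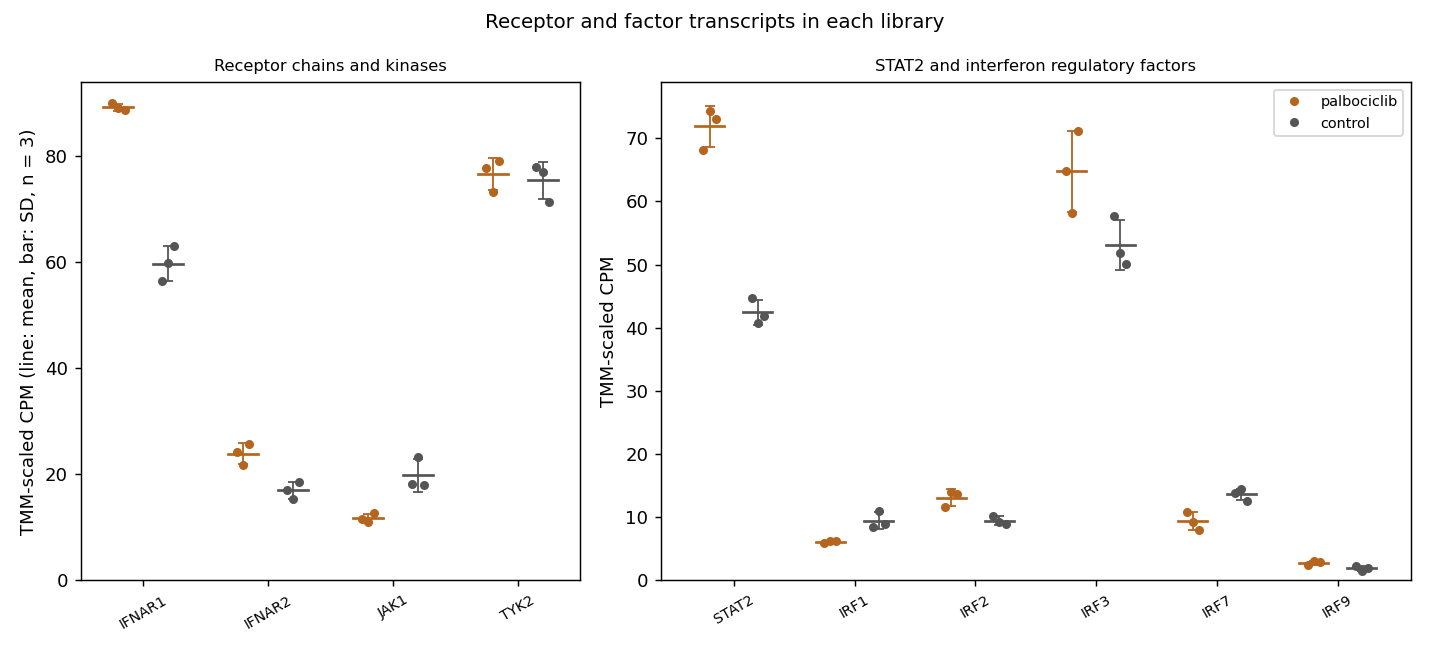
TMM-scaled CPM (y axis) in each library for the receptor genes and kinases (left panel) and for STAT2 and the interferon regulatory factors (right panel); points are libraries, lines means and bars SD over 3 libraries, palbociclib left of control. STAT2 averaged 71.9 CPM with palbociclib and 42.4 CPM in controls, and JAK1 averaged 11.8 CPM with palbociclib and 19.7 CPM in controls.

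Among the transcription factors 3 were higher, 2 were lower and 1 did not pass, beside 20.1% higher and 18.5% lower over all genes. The groups did not overlap for any of the 6, as for 51.1% of all genes. STAT2 (ENSG00000170581, chromosome 12, 56341597 to 56360203), which carries the activating domain of the ISRE-binding complex, had 68.2, 74.4 and 73.1 CPM with palbociclib, against 44.7, 40.8 and 41.8 CPM in controls. It was 1.69-fold higher (log2 fold change 0.76 ± 0.0552, adjusted p = 1.29e-05), and higher under all 14 alternatives. IRF9 (ENSG00000213928, chromosome 14, 24161234 to 24168043), the DNA-binding subunit of that complex, was low, with 2.35, 2.98 and 2.94 CPM with palbociclib, against 2.33, 1.51 and 1.95 CPM in controls. The lowest palbociclib library was barely above the highest control, and the difference did not pass (log2 fold change 0.51 ± 0.217, adjusted p = 0.0965). IRF9 shares 1544 of 6471 exon bases with a read-through gene of the same strand that had 12092 counts over the 6 libraries, against 933 for IRF9, so the level of IRF9 is uncertain.

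IRF1 and IRF7, which interferon itself induces, were lower. IRF1 (ENSG00000125347, chromosome 5, 132440440 to 132496467), an activator of antigen presentation and antiviral genes, had 5.91, 6.18 and 6.18 CPM with palbociclib, against 8.43, 11.0 and 8.88 CPM in controls. All palbociclib libraries were below all controls (log2 fold change -0.63 ± 0.133, adjusted p = 0.00532); 2805 of its 12265 exon bases overlap the antisense gene IRF1-AS1, and the counting is not stated to use strand. IRF7 (ENSG00000185507, chromosome 11, 612553 to 615983), which amplifies interferon transcription, had 10.8, 9.23 and 8.01 CPM with palbociclib, against 13.7, 14.4 and 12.6 CPM in controls. It was 1.45-fold lower (log2 fold change -0.54 ± 0.129, adjusted p = 0.0102). IRF2 (ENSG00000168310, chromosome 4, 184385702 to 184474550), known mainly as a repressor that competes with IRF1, had 11.5, 14.0 and 13.7 CPM with palbociclib, against 10.2, 9.27 and 8.91 CPM in controls. It was higher (log2 fold change 0.46 ± 0.115, adjusted p = 0.0117), although not without palbociclib library 2 or with limma on FPKM (adjusted p up to 0.06, from 0.00112). IRF3 (ENSG00000126456, chromosome 19, 49659569 to 49665875), the factor that sensors activate to start interferon production, had 64.9, 58.2 and 71.2 CPM with palbociclib, against 57.6, 51.8 and 50.0 CPM in controls. That rise was the smallest of these (log2 fold change 0.28 ± 0.0811, adjusted p = 0.0225), was lost under 7 of 14 alternatives (adjusted p 0.0025 to 0.163), and 734 of 3794 exon bases overlap BCL2L12 on the opposite strand.

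The RNA sensors and the RNA editor, 3 genes, were all higher by small amounts, beside 20.1% of all genes tested. DHX58 (LGP2), a helicase that tunes RNA sensing, had 4.67, 4.96 and 4.91 CPM with palbociclib, against 3.26, 3.69 and 2.41 CPM in controls (log2 fold change 0.63 ± 0.182, adjusted p = 0.0225). IFIH1 (MDA5), the sensor of long double-stranded RNA, had 10.0, 9.19 and 9.71 CPM with palbociclib, against 8.41, 6.88 and 7.53 CPM in controls (log2 fold change 0.34 ± 0.118, adjusted p = 0.0481). ADAR, which edits double-stranded RNA and so keeps it from being sensed, averaged 539 ± 19.1 CPM with palbociclib and 474 ± 11.0 CPM in controls (log2 fold change 0.18 ± 0.0388, adjusted p = 0.00522). None of the 3 calls held under every alternative: IFIH1 was lost under 10 of 14 (adjusted p 0.0301 to 0.154), DHX58 under 5 (0.00853 to 0.0709) and ADAR under 3 (1.39e-05 to 0.18).

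The largest rises were in a group of antiviral effectors that were low in controls. The IFIT family binds foreign RNA ends and blocks their translation. IFIT3 (ENSG00000119917, chromosome 10, 89327307 to 89342166) had 3.79, 3.43 and 4.05 CPM with palbociclib, against 0.888, 1.07 and 1.02 CPM in controls, a 3.78-fold rise (log2 fold change 1.92 ± 0.184, adjusted p = 6.43e-05). IFIT1 (ENSG00000185745, chromosome 10, 89392546 to 89406487) had 7.71, 6.67 and 7.11 CPM with palbociclib, against 2.43, 1.76 and 1.74 CPM in controls, a 3.61-fold rise (log2 fold change 1.85 ± 0.176, adjusted p = 6.03e-05). IFIT2 (ENSG00000119922, chromosome 10, 89283694 to 89309271) had 9.55, 12.1 and 11.9 CPM with palbociclib, against 3.49, 3.34 and 4.72 CPM in controls, a 2.90-fold rise (log2 fold change 1.54 ± 0.171, adjusted p = 0.000146). Palbociclib libraries stood above controls without overlap for these 3 genes, as for 25.7% of all genes. Each of the 3 remained higher under all 14 alternatives. IFIT5 (ENSG00000152778, chromosome 10, 89414568 to 89421605), at the far end of the same cluster, was lower: it had 1.91, 1.93 and 2.64 CPM with palbociclib, against 4.35, 3.59 and 3.28 CPM in controls (log2 fold change -0.80 ± 0.201, adjusted p = 0.0129), and that call was lost without palbociclib library 1 or 2 or control library 1 (adjusted p up to 0.0598, from 0.00389).

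The IFIT genes lie within 138 kb on chromosome 10, and their windows printed above hold 2 ISRE matches for IFIT1 and 3 for IFIT5. Per length, IFIT1 exceeded IFIT5 3.83, 3.27 and 2.55 times in palbociclib libraries 1 to 3, and was 0.529, 0.461 and 0.498 of IFIT5 in controls 1 to 3. In each palbociclib library IFIT1 was thus the higher of these neighbours on the FPKM scale, and in each control library IFIT5 was. IFIT2 and IFIT3 share 65 and 94 exon bases with LIPA on the opposite strand. LIPA had 28524 counts over the 6 libraries, against 2938 for IFIT2 and 930 for IFIT3. The part of that overlap in the rises of IFIT2 and IFIT3 was not tested.

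GBP2 (ENSG00000162645, chromosome 1, 89106132 to 89150456), a guanylate-binding GTPase, had the largest rise of all members. It had 3.93, 4.54 and 4.22 CPM with palbociclib, against 0.629, 0.907 and 0.702 CPM in controls. Counts were 288, 294 and 240 with palbociclib, against 51, 54 and 44 in controls, at about 4 counts per fragment. The rise was 5.68-fold (log2 fold change 2.51 ± 0.206, adjusted p = 2.56e-05) and remained higher under all 14 alternatives. OASL (ENSG00000135114, chromosome 12, 121017763 to 121039246), a catalytically inactive relative of the OAS enzymes that aids RNA sensing, had 7.99, 10.1 and 9.34 CPM with palbociclib, against 3.29, 3.22 and 3.56 CPM in controls. It rose 2.72-fold (log2 fold change 1.44 ± 0.138, adjusted p = 6.22e-05).

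The OAS enzymes make oligoadenylates, the messengers that activate the nuclease RNase L, and their cluster on chromosome 12 did not move as a block. OAS3 (ENSG00000111331, chromosome 12, 112938051 to 112973251), the main activator of RNase L in human cells, had 14.2, 14.6 and 13.4 CPM with palbociclib, against 27.8, 26.3 and 22.9 CPM in controls, and was 1.82-fold lower (log2 fold change -0.87 ± 0.0928, adjusted p = 0.000117; lower under all 14 alternatives). OAS1 and OAS2, on either side of it, did not pass. OAS1 had 1.60, 2.13 and 2.69 CPM with palbociclib, against 1.22, 1.66 and 0.829 CPM in controls (log2 fold change 0.79 ± 0.308, adjusted p = 0.0746). OAS2 was near the floor, with counts of 35, 33 and 20 with palbociclib, against 6, 17 and 8 in controls (log2 fold change 1.47 ± 0.602, adjusted p = 0.0857). The OAS2 groups did not overlap. Among the alternatives that gave a value, OAS1 and OAS2 passed without control library 2 alone (adjusted p = 0.0402 for OAS1 and 0.0377 for OAS2), and reached at most 0.384 for OAS1 and 0.218 for OAS2.

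**Figure D3:**
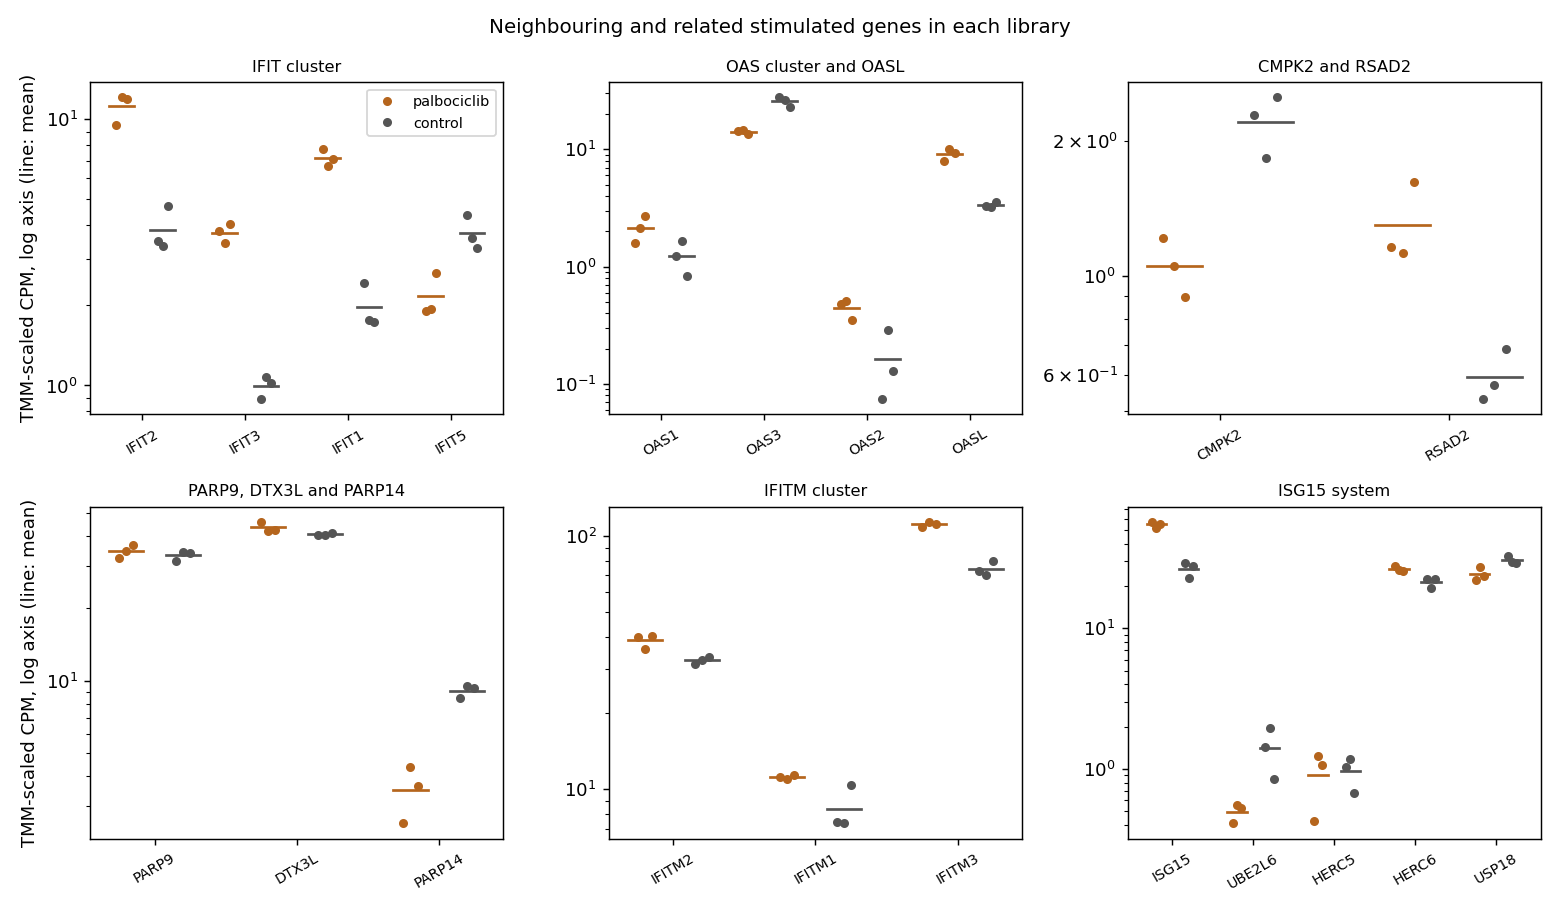
TMM-scaled CPM (log y axis, a separate scale in each panel) in each library for clusters of neighbouring genes and for the ISG15 system. OASL is drawn beside the OAS cluster as a related gene and lies outside it on chromosome 12. Points are libraries and lines means of 3, palbociclib left of control. IFIT2, IFIT3 and IFIT1 were higher and IFIT5 lower with palbociclib; OAS3 and OASL, and CMPK2 and RSAD2, also lay on opposite sides.

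CMPK2 and RSAD2 are neighbours on chromosome 2 that are usually induced together, and here they were on opposite sides. RSAD2 (viperin), which makes a chain-terminating nucleotide, had 1.16, 1.13 and 1.62 CPM with palbociclib, against 0.530, 0.571 and 0.686 CPM in controls (log2 fold change 1.13 ± 0.288, adjusted p = 0.0138). CMPK2, a nucleotide kinase that can supply its substrate, had 1.21, 1.05 and 0.897 CPM with palbociclib, against 2.28, 1.83 and 2.50 CPM in controls (log2 fold change -1.06 ± 0.23, adjusted p = 0.00617). Neither gene's groups overlapped, as for 51.1% of all genes in either direction. The ratio of RSAD2 to CMPK2 on the FPKM scale was 0.746, 0.828 and 1.40 in palbociclib libraries, against 0.171, 0.237 and 0.213 in controls. Counts of both genes were low, at 34 to 185 per library, and 351 bases of their exons overlap on opposite strands. The rise of RSAD2 was lost without palbociclib library 3 and with limma on FPKM (adjusted p up to 0.116, from 0.011).

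MX1 (ENSG00000157601, chromosome 21, 41420020 to 41459637), a dynamin-like GTPase that traps viral nucleocapsids, had 31.0, 26.6 and 33.3 CPM with palbociclib, against 17.7, 18.5 and 19.8 CPM in controls (log2 fold change 0.70 ± 0.0949, adjusted p = 0.000478). Its groups did not overlap and the call held under all 14 alternatives. Of its 17984 exon bases, 562 overlap TMPRSS2 on the opposite strand, which had 985 to 999 CPM with palbociclib and 354 to 361 CPM in controls. The part of that overlap in the rise of MX1 was not tested. MX2, its neighbour, had counts of 23, 8 and 14 with palbociclib, against 27, 41 and 0 in controls, and did not pass (log2 fold change -0.57 ± 1.06, adjusted p = 0.717). ISG20, an exonuclease that degrades viral RNA, was lower, with 11.3, 10.1 and 10.7 CPM with palbociclib, against 16.9, 14.3 and 16.6 CPM in controls (log2 fold change -0.57 ± 0.103, adjusted p = 0.00223). SAMD9, a restriction factor of poxviruses, had 1.99, 1.73 and 2.18 CPM with palbociclib, against 1.15, 0.722 and 1.56 CPM in controls and did not pass (log2 fold change 0.78 ± 0.297, adjusted p = 0.0676), though it did without control library 3, with counts divided by 4 and with the replicate block (lowest adjusted p = 0.0218, highest 0.202).

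The ISG15 system attaches the ubiquitin-like protein ISG15 to other proteins, and its parts were split. ISG15 (ENSG00000187608, chromosome 1, 1001138 to 1014540), the modifier itself, had 57.3, 52.1 and 55.3 CPM with palbociclib, against 29.3, 22.9 and 27.6 CPM in controls. It was 2.06-fold higher (log2 fold change 1.04 ± 0.0896, adjusted p = 3.33e-05). Per length, ISG15 was at 58.7 ± 2.77 FPKM with palbociclib and 30.7 ± 3.68 FPKM in controls. Its mean over the 6 libraries was the highest of the 50 members, at 44.7 FPKM, but in controls ADAR was higher, at 38.7 ± 0.84 FPKM. UBE2L6, the conjugating enzyme that carries ISG15, was lower and scarce, with counts of 30, 36 and 30 with palbociclib, against 116, 117 and 53 in controls (log2 fold change -1.50 ± 0.364, adjusted p = 0.0105). HERC5, the main human ligase, did not pass, with 0.423, 1.24 and 1.07 CPM with palbociclib, against 1.04, 1.18 and 0.670 CPM in controls (log2 fold change -0.08 ± 0.426, adjusted p = 0.905). HERC6 had 27.6, 26.0 and 25.5 CPM with palbociclib, against 22.3, 19.3 and 22.6 CPM in controls and was slightly higher (log2 fold change 0.30 ± 0.082, adjusted p = 0.018). USP18, which removes ISG15 and also damps the receptor by binding IFNAR2, had 21.9, 27.2 and 23.5 CPM with palbociclib, against 32.8, 29.5 and 29.0 CPM in controls and was lower (log2 fold change -0.33 ± 0.0936, adjusted p = 0.0212). The calls of HERC6 and USP18 were lost under 5 and 3 of 14 alternatives (adjusted p up to 0.0964, from 0.00317, and up to 0.0902, from 0.00415). Reads of USP18 may be shared with near-identical copies on chromosome 22, so its level is uncertain.

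The IFITM proteins block viral fusion at membranes and were among the more abundant members. IFITM3 (ENSG00000142089, chromosome 11, 319676 to 329475) had 109, 114 and 111 CPM with palbociclib, against 72.9, 70.6 and 79.7 CPM in controls (log2 fold change 0.58 ± 0.0528, adjusted p = 4.54e-05). All palbociclib libraries were above all controls. IFITM2 had 40.2, 35.8 and 40.5 CPM with palbociclib, against 31.4, 32.5 and 33.2 CPM in controls, a smaller rise (log2 fold change 0.26 ± 0.0649, adjusted p = 0.0117) that was lost without control library 1, on both FPKM scales and with library size alone (adjusted p up to 0.0954, from 0.00215). IFITM1 had 11.2, 11.0 and 11.4 CPM with palbociclib, against 7.46, 7.34 and 10.4 CPM in controls and did not pass (log2 fold change 0.42 ± 0.149, adjusted p = 0.053), but was called without control library 3, its highest control, and under 4 other alternatives (adjusted p 0.00384 to 0.17). These 3 genes lie within 25.8 kb on chromosome 11 and are close in sequence, so that the division of reads among them is uncertain. BST2 (tetherin), which holds budding virus at the cell surface, had 2.72, 3.47 and 4.12 CPM with palbociclib, against 3.67, 5.91 and 2.79 CPM in controls, with overlapping groups (log2 fold change -0.26 ± 0.282, adjusted p = 0.509).

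The PARP and DTX3L genes encode ADP-ribosyltransferases and a ubiquitin ligase that pairs with PARP9. PARP14 (ENSG00000173193, chromosome 3, 122680839 to 122730840) was lower, with 2.54, 4.37 and 3.64 CPM with palbociclib, against 8.48, 9.47 and 9.31 CPM in controls, a 2.59-fold difference (log2 fold change -1.37 ± 0.195, adjusted p = 0.000621) that held under all 14 alternatives. Its partners in the same 203 kb of chromosome 3 did not pass. PARP9 (ENSG00000138496, chromosome 3, 122527924 to 122564577) had 32.4, 34.8 and 36.7 CPM with palbociclib, against 31.7, 34.4 and 34.0 CPM in controls (log2 fold change 0.06 ± 0.0662, adjusted p = 0.559). DTX3L (ENSG00000163840, chromosome 3, 122564338 to 122575203) had 46.0, 42.1 and 42.5 CPM with palbociclib, against 40.5, 40.5 and 41.2 CPM in controls, without overlap (log2 fold change 0.10 ± 0.0532, adjusted p = 0.196). PARP9 and DTX3L start head to head and share 139 exon bases. PARP12 (ENSG00000059378, chromosome 7, 140023749 to 140062951) had 33.4, 34.9 and 38.5 CPM with palbociclib, against 34.8, 32.0 and 30.6 CPM in controls and did not pass (log2 fold change 0.13 ± 0.075, adjusted p = 0.21). PARP10 averaged 46.5 ± 5.81 CPM with palbociclib and 36.5 ± 2.19 CPM in controls and was higher (log2 fold change 0.35 ± 0.0904, adjusted p = 0.0141), a call lost without control library 1, on both FPKM scales and with library size alone (adjusted p up to 0.105, from 0.000814). Of its 6033 exon bases, 324 overlap GRINA and 197 overlap SPATC1, both on the opposite strand. GRINA had 83241 counts over the 6 libraries, against 16554 for PARP10. The part of these overlaps in the rise of PARP10 was not tested.

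Of the remaining 8 stimulated genes tested, 3 were higher, against 20.1% of all genes, and 5 did not pass. The share called in either direction, 37.5%, was close to the 38.6% over all genes. LGALS3BP (ENSG00000108679, chromosome 17, 78971238 to 78979927), a secreted glycoprotein that binds galectin, had 69.2, 69.1 and 61.0 CPM with palbociclib, against 40.5, 36.5 and 35.7 CPM in controls (log2 fold change 0.82 ± 0.0703, adjusted p = 3.28e-05). SP110 (ENSG00000135899, chromosome 2, 230165186 to 230220014), a nuclear body protein, had 10.8, 11.2 and 14.0 CPM with palbociclib, against 7.32, 6.97 and 6.59 CPM in controls (log2 fold change 0.78 ± 0.131, adjusted p = 0.00152). IFI44 had 7.00, 6.58 and 6.00 CPM with palbociclib, against 3.16, 3.83 and 3.92 CPM in controls (log2 fold change 0.85 ± 0.147, adjusted p = 0.00187). The groups did not overlap for these 3 genes, with palbociclib above, as for 25.7% of all genes. Of the exon bases of SP110, 1898 of 10685 overlap a gene of the opposite strand with 67 counts in all. IFI35 (ENSG00000068079, chromosome 17, 43006740 to 43014456), a partner of the interferon-induced protein NMI, had 13.3, 11.2 and 11.9 CPM with palbociclib, against 11.4, 13.3 and 13.8 CPM in controls and did not pass (log2 fold change -0.08 ± 0.116, adjusted p = 0.634). IFI6, a mitochondrial and endoplasmic reticulum protein, ranged widely with palbociclib, at 9.09, 5.62 and 3.84 CPM, against 5.94, 6.68 and 8.20 CPM in controls (log2 fold change -0.16 ± 0.284, adjusted p = 0.695). The last 3 were scarce and their groups overlapped. IFI27 had 0.928, 0.818 and 1.53 CPM with palbociclib, against 0.949, 0.806 and 0.399 CPM in controls. IFI44L had 0.205, 0.757 and 0.880 CPM with palbociclib, against 0.222, 0.571 and 0.415 CPM in controls. EPSTI1 had 0.505, 0.587 and 1.27 CPM with palbociclib, against 0.604, 0.755 and 0.510 CPM in controls. They had log2 fold changes of 0.60, 0.61 and 0.33 in that order and did not pass (adjusted p = 0.286, 0.472 and 0.59).

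Members of low level per length had the wider errors. Mean FPKM over the 6 libraries was under 1 for 21 of 50 members, of which 12 were called, and at least 1 for 29, of which 21 were called, beside 38.6% of all genes called. Members under 1 FPKM had a median SE of 0.23 on the log2 scale, against 0.0928 for the others. ISG15, ADAR, IFITM3, IFITM2, IRF3 and LGALS3BP were the 6 members at or above 10 FPKM, in that order. Summed over the 40 stimulated genes and sensors, FPKM was 253.9, 245.1 and 250.4 with palbociclib, against 200.2, 193.7 and 201.0 in controls. Without ADAR the sums were 214.4, 204.8 and 207.9 with palbociclib, against 160.6, 155.5 and 162.8 in controls. ISG15 alone supplied 28.0 of the 51.5 FPKM by which the mean sum was higher with palbociclib. Without ISG15 the sums were 192.7, 189.5 and 191.2 with palbociclib, against 166.5, 167.2 and 169.3 in controls. The groups did not overlap in any of these 3 sums.

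**Figure D4:**
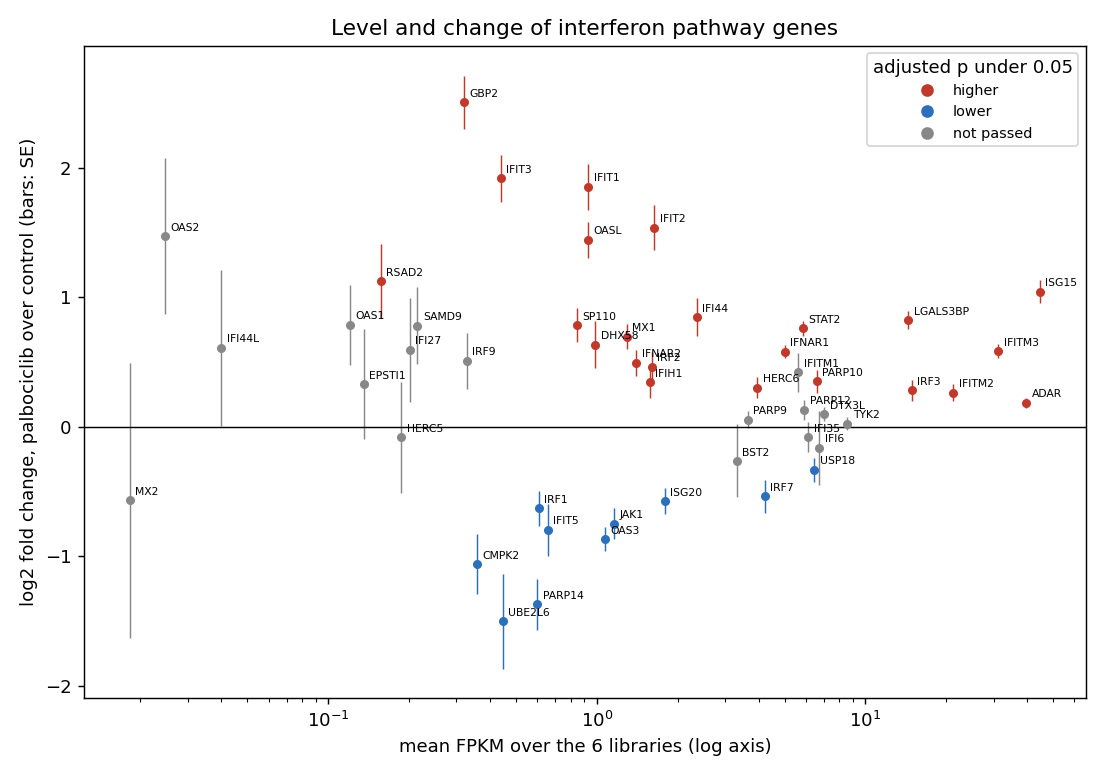
Mean FPKM over the 6 libraries (x axis, log scale) and log2 fold change of palbociclib over control (y axis, bars are SE) of the 50 members. The members past 2-fold lie at low to middle levels, except ISG15 at 44.7 FPKM, and SE widens toward the left.

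Interferon transcripts were not detectable at this depth for the 2 interferon genes listed of 10 looked for. IFNL1 had 3 counts in palbociclib library 2, IFNE had 4 counts in control library 1, and neither had a count elsewhere, so that no library reached 12 counts; the other 8 were not analysed here. Among receptors of the other interferon types and a partner kinase, 3 of 5 were higher and 0 lower, beside 20.1% higher and 18.5% lower over all genes. IL10RB, a chain of the type III receptor, had 26.5, 26.2 and 26.2 CPM with palbociclib, against 16.7, 16.1 and 15.9 CPM in controls (log2 fold change 0.69 ± 0.068, adjusted p = 7.18e-05). JAK2, a kinase that the interferon-gamma receptor uses together with JAK1, had 22.6, 23.6 and 25.0 CPM with palbociclib, against 17.1, 16.7 and 18.1 CPM in controls. It was higher (log2 fold change 0.46 ± 0.0772, adjusted p = 0.00165), the opposite direction to JAK1. IFNGR2, the chain that binds JAK2, averaged 30.1 ± 2.41 CPM with palbociclib and 23.9 ± 1.77 CPM in controls (log2 fold change 0.33 ± 0.0843, adjusted p = 0.0139), while IFNLR1 was at 0.164, 0.124 and 0 CPM with palbociclib and 0.222, 0.252 and 0 CPM in controls.

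Of 5 brakes of the pathway tested, 3 were higher and 0 lower, beside the same shares of 20.1% and 18.5% over all genes. USP18, which was lower, is counted above with the ISG15 system and is not among these 5. SOCS3 did not pass (log2 fold change -0.67 ± 0.703, adjusted p = 0.5), and SOCS1 was removed by the filter on low counts. PIAS1, an inhibitor of STAT binding to DNA, averaged 81.3 ± 2.01 CPM with palbociclib and 49.5 ± 4.21 CPM in controls (log2 fold change 0.72 ± 0.0636, adjusted p = 4.04e-05). PTPN6 (SHP-1), a phosphatase of the receptor kinases, had 60.7, 56.8 and 67.8 CPM with palbociclib, against 50.6, 49.9 and 46.3 CPM in controls (log2 fold change 0.34 ± 0.0704, adjusted p = 0.00516). CISH, of the SOCS family, had 5.13, 5.28 and 4.70 CPM with palbociclib, against 2.56, 4.10 and 3.13 CPM in controls (log2 fold change 0.63 ± 0.191, adjusted p = 0.0288), and PTPN2, a phosphatase of JAK1, did not pass (log2 fold change -0.08 ± 0.0634, adjusted p = 0.384). In nucleic acid sensing 3 of 10 genes tested were higher and 2 lower, near those shares. The adaptor TICAM1 (log2 fold change 0.51 ± 0.0932, adjusted p = 0.0024) and the kinase TBK1 (log2 fold change 0.34 ± 0.0702, adjusted p = 0.00489) were higher, and the ligase TRIM25 (log2 fold change -0.31 ± 0.0369, adjusted p = 0.000231) and IRF5 (log2 fold change -0.52 ± 0.0965, adjusted p = 0.00266) were lower. Of 24 further stimulated genes tested, 7 were higher and 6 lower, also near the 20.1% and 18.5% over all genes. ZC3HAV1 (ZAP), which binds CpG-rich viral RNA, averaged 141 ± 3.71 CPM with palbociclib and 94.3 ± 2.31 CPM in controls (log2 fold change 0.58 ± 0.0402, adjusted p = 9.59e-06). CNP, a membrane-associated phosphodiesterase, was higher as well (log2 fold change 0.47 ± 0.0355, adjusted p = 1.56e-05). PLSCR1, a phospholipid scramblase, had 0.628, 0.648 and 0.422 CPM with palbociclib, against 2.39, 2.48 and 3.09 CPM in controls (log2 fold change -2.22 ± 0.255, adjusted p = 0.000174), and APOL6 was also lower (log2 fold change -1.88 ± 0.281, adjusted p = 0.000834). Over these 44 other pathway genes tested, the median log2 fold change was 0.15, beside -0.03 for all genes, with 16 higher, against 20.1% of all genes, and 8 lower, a share close to the 18.5% over all genes.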

How the data were processed

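The submitters' processing notes name cutadapt 1.9, HISAT2 2.0.4, StringTie 1.3.4d, edgeR and the build hg38. The series' design text names fastp for trimming, and a merge of StringTie assemblies before quantification. The authors deposited an estimated count and an FPKM value per gene and library; the annotation release and strand setting are not given in the sources used here. Estimated counts were whole as deposited, and values of 4, 8 and 12 were in excess, so about 4 counts stand for a fragment. No column of per-sample values was left unmapped, and no row lacked a gene name. Floors cover counting error only.

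Genes were kept by filterByExpr (minimum count 10, minimum total 15; 21218 of 35430 kept), scaled by TMM and tested with edgeR 4.0.16 (R 4.3.3) quasi-likelihood, Benjamini-Hochberg over all genes kept, threshold 0.05, all 6 libraries, no replicate block. The test was run on simulated counts first. Levels are TMM-scaled CPM; SE is the absolute log2 fold change over the square root of F. Exon overlaps use GENCODE 44 and partners with at least 60 counts in all; 50 members were found there, 35 with the same start and end. Alternatives used DESeq2 1.42.0, limma 3.58.1 and others given below.

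Members and lists were chosen with earlier results of these data known. The rule gave full values for receptors, kinases and factors, for the 12 other members with the lowest adjusted p and for the 4 most abundant that did not pass, and up to 4 genes of each further list; remaining members were described in less detail, and any shown in full were chosen after their values were seen.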

Additional observations from a re-analysis of the deposited data

How the results depend on the processing

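Of 33 members called, 21 kept direction and call under all 14 alternatives that refit the test (13 higher, 8 lower), 12 lost the call under at least 1, and 0 reversed. Of those not called, 4 were called under at least 1. The members' median was 0.23 with library size alone (all genes -0.14), 0.12 with limma on log2(FPKM + 1) (all genes -0.06) and 0.22 with log2(FPKM + 0.1) (all genes -0.12). Rises numbered 14 and 13 on these FPKM scales, against 14% of all genes on each. The cause of these smaller numbers was not tested. With genes of overlapping exons left out, 14 rises remained among 35 members, or 40%. Before these were left out, 46% of the members were higher, beside 20.1% of all genes tested. The members' share lower was 20% either way. Leaving out each library gave medians of 0.30 to 0.40, 19 to 23 rises and 8 to 10 falls. Over all genes these fits called 16.4% to 19% higher and 14.1% to 16.9% lower. With the replicate block the members' counts were 24 higher and 10 lower, against 18.2% and 16.2% of all genes. No label ties same-numbered libraries to a shared origin, and their deviations from the group means correlated at -0.00794, -0.0341 and -0.0311; not every library correlated best with its own number. Without a filter, 22 were higher, against 10.7% of all genes. Low counts limit HERC5, OAS2, MX2, RSAD2, IFI27, IFI44L and EPSTI1 most: these 7 members had under 100 counts in every library, and 1 of them, RSAD2, passed.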
